A study of Arabidopsis thaliana with 12 samples.

Results

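The genes described are 10 calmodulin-like (CML) genes of Arabidopsis thaliana, CML10 (AT2G41090), CML12 (AT2G41100), CML24 (AT5G37770), CML37 (AT5G42380), CML38 (AT1G76650), CML41 (AT3G50770), CML42 (AT4G20780), CML43 (AT5G44460), CML46 (AT5G39670) and CML47 (AT3G47480). They were named by locus identifier, with earlier results of these data known, and are 10 of the 32678 genes in the count table. Calmodulin-like proteins carry EF-hand motifs that bind calcium ions, and each is thought to pass a rise of calcium in the cell on to its own partners. Such rises follow within minutes when flagellin is sensed at the cell surface. A sustained rise has been reported in response to an avirulent pathogen, whose effector is sensed inside the cell. CAMTA3 is a transcription factor that binds calmodulin, and the genes below encode relatives of the protein it binds.

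Transcripts were counted in 12 RNA-seq libraries of polyadenylated leaf RNA, 2 in each of 6 groups that cross 2 genotypes with 3 treatments. The genotypes were camta3-D, which carries the dominant camta3 allele sr1-4D in the Col-0 background, and Col-0 wild type. Leaves were syringe-infiltrated with 100 nM flg22, a flagellin peptide, and sampled 1 h later, or with Pseudomonas syringae pv. tomato (Pst) DC3000 at an OD600 of 0.001 delivering AvrRpm1 or AvrRps4, and sampled 4 h later. AvrRpm1 is sensed through the intracellular receptor RPM1 and AvrRps4 through RPS4 with its partner RRS1. Each sample pooled leaf discs of several plants, and the flg22 and AvrRpm1 data are described in the study as coming from 2 independent experiments. Which library belongs to which experiment, and whether this holds for AvrRps4, is not given in the sources used here, so p-values here cover only the spread seen among these libraries. No mock-treated or untreated library was analysed here, and a genotype difference after a treatment cannot be told apart from one present before it. The mutant genotype is 1 allele, a dominant amino acid substitution, so CAMTA3 counts do not check the genotype labels.

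The libraries held 22769687 to 26303024 counts assigned to genes. CAMTA3 itself stood between 49.9 and 209.8 CPM (counts scaled to a common library size, with trimmed mean of M values factors) and passed in none of the 3 genotype comparisons (edgeR adjusted p 0.306 to 0.847). The 5 leaf mesophyll markers summed to 18500 to 41000 CPM and the 5 root markers to at most 0.478 CPM. Replicate 2 of camta3-D after AvrRpm1 stood apart in alignment, with 7.78% of its reads on the not-unique summary line against 2.56% to 3.43% in the other libraries. Among the 9 members other than CML43, the libraries of a group differed more than was usual for all genes tested. The median absolute log2 difference between replicates was 0.351 to 0.971 for these members and 0.162 to 0.211 for all genes tested. In both AvrRps4 groups replicate 2 was the higher for nearly every member, 9 of 9 in camta3-D and 8 of 9 in wild type.

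The promoters of the members that carried the clearest genotype differences are printed because CAMTA proteins are known to bind CGCG and, less tightly, CGTG cores. Each is the 300 bases before the annotated start in the RefSeq TAIR10.1 genome, 5′ to 3′ on the gene's strand, with CGCG, CGTG and its reverse complement CACG in capitals. CML10 is read from chr2:17135047-17135346 (plus), CML24 from chr5:14999620-14999919 (minus), CML46 from chr5:15882879-15883178 (plus) and CML47 from chr3:17497165-17497464 (minus).
CML24: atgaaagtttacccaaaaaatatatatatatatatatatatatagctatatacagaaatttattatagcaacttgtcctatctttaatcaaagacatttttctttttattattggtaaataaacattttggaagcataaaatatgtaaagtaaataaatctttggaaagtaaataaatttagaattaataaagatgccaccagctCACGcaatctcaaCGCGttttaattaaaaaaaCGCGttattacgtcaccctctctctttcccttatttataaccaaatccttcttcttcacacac
CML10: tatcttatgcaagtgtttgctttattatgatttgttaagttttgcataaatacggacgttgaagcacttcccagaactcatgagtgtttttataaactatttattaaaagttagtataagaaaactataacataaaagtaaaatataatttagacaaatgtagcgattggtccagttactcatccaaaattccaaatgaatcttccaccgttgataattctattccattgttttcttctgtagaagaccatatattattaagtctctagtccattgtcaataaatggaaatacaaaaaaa
CML46: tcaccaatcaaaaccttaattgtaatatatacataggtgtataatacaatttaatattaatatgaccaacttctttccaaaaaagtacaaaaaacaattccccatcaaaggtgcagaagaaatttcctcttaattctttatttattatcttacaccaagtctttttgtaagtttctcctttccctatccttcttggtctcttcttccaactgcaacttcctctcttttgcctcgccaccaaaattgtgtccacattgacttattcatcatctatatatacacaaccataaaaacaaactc
CML47: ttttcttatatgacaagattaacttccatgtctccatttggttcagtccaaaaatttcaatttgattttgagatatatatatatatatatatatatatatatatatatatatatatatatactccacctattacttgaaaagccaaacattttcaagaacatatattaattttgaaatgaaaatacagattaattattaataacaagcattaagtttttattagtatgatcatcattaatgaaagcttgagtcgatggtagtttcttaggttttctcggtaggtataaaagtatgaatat
CML24 alone among the 10 members had CGCG in this window, beginning 82 and 63 bases before the start, beside a CACG at 95 bases. The promoters of CML10, CML46 and CML47 held neither core. With CML12, which had a CACG at 7 bases, 2 of 10 members held CGCG or CGTG on either strand, against 54.0% of 27443 protein-coding genes, and CGCG alone was in 11.8% of those. Counted instead in the 300 bases before the coding sequence, 5 of 10 members (CML12, CML24, CML37, CML38 and CML43) and 57.2% of genes held one. CGCG alone was there in 2 of 10 members (CML24 and CML37), against 14.1% of genes. The W box (TTGACC or TTGACT, either strand), a WRKY site, was in CML38 at 204 and CML46 at 46 bases, against 32.3% of promoters. A match describes letters and not a bound site, and no match says only that the letters are absent from this window.

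The main question was whether these genes were expressed differently in camta3-D. Of the 10 members, 5 were lower in camta3-D after at least 1 treatment (CML10, CML37, CML41, CML46 and CML47), 1 was higher (CML24), and 4 passed in no treatment (CML12, CML38, CML42 and CML43). Of all genes tested, 9.2% were lower and 7.72% higher after at least 1 treatment. After flg22, 4 members were lower and 0 higher by the edgeR quasi-likelihood test at a Benjamini-Hochberg adjusted p under 0.05 over 19167 genes, where 5.59% of all genes tested were lower and 5.21% higher. DESeq2 also called 0 higher, and no member was higher at an unadjusted p under 0.05. After AvrRpm1, 3 were lower and 1 higher, against 3.41% and 1.12% of all genes. After AvrRps4, 2 were lower and 1 higher, against 2.44% and 2.49%. The members' median log2 fold change stood at -1.96 for flg22, against 0.0449 over all genes tested, at -1.65 for AvrRpm1, against 0.0121, and at -0.638 for AvrRps4, against -0.00213. With CML43 left out, whose fitted values rest on a few counts, these medians became -1.73, -0.768 and -0.528. The flg22 median still includes CML41, which had only 1 and 3 counts in camta3-D after flg22. The number of members called changed in each treatment when single libraries were left out. Fits that left 1 library in a group also called fewer of all genes in most cases, so a lost call need not be particular to the members. In leaf tissue, fewer cells of a type and less RNA per cell cannot be told apart.

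**Figure D1:**
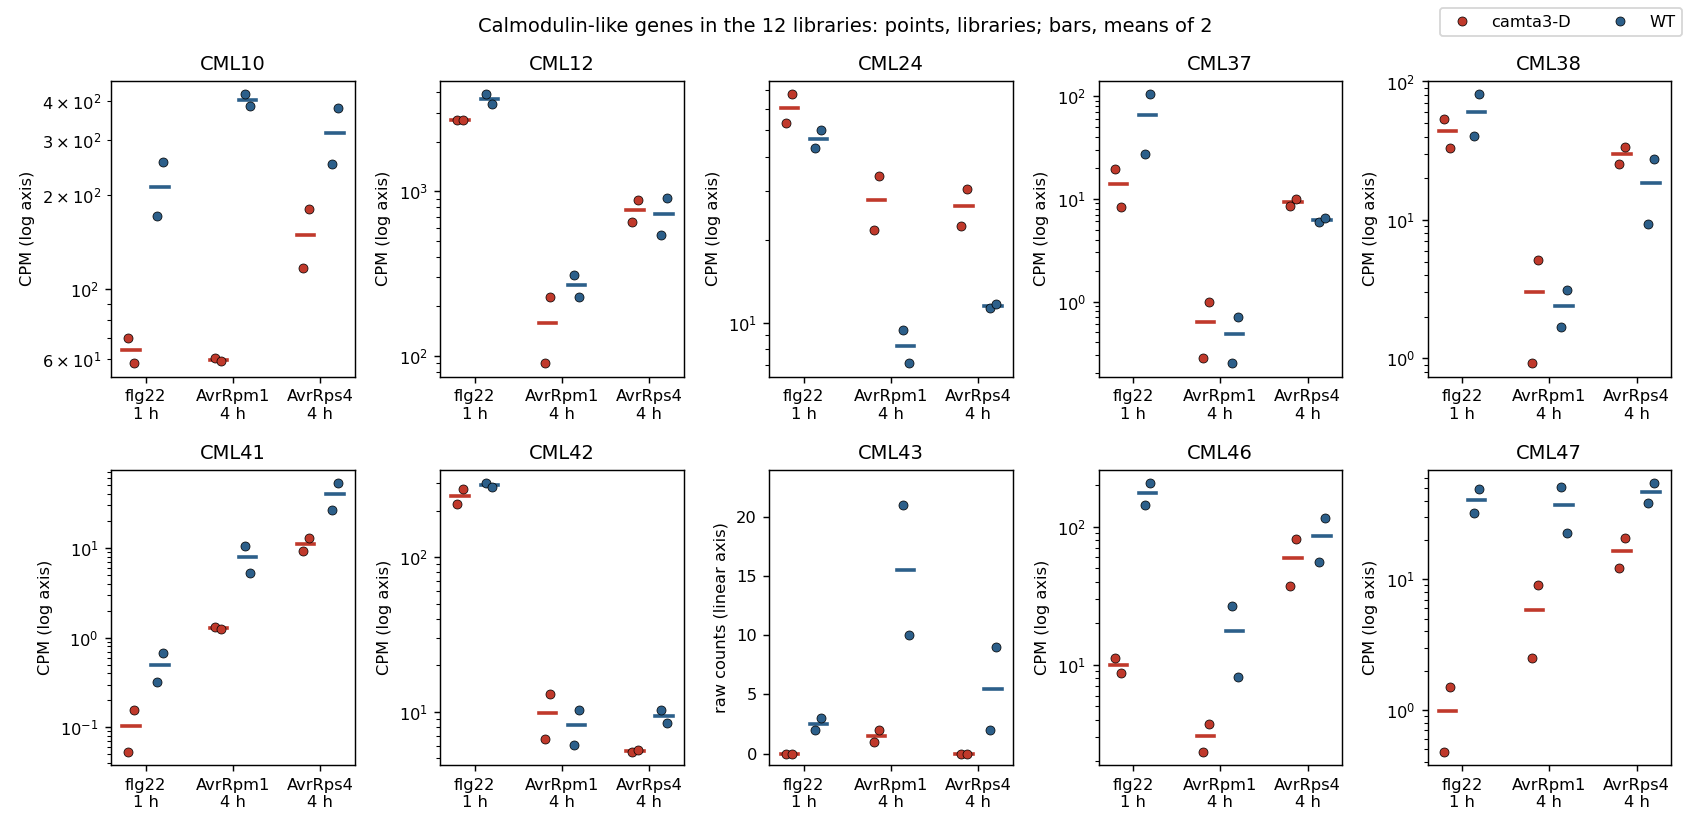
Level of each calmodulin-like gene in the 12 libraries, as scaled CPM on a log axis (CML43 as raw counts on a linear axis), with camta3-D in red left of wild type in blue within each treatment. Points are libraries and bars the mean of 2. CML47 lay between 0.478 and 1.50 CPM in camta3-D after flg22 and between 32.0 and 48.8 CPM in wild type, while CML42 stood above 222 CPM in all 4 flg22 libraries and at or below 13.1 CPM in all 8 Pst libraries.

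CML46 and CML47 are known to act, in part redundantly, as restraints on salicylic acid accumulation and on immunity to Pst. Both are intronless in the TAIR10.1 annotation, CML46 at chr5:15883179-15884067 on the plus strand and CML47 at chr3:17496085-17497164 on the minus strand. CML47 had 0.478 and 1.50 CPM in camta3-D after flg22, against 32.0 and 48.8 CPM in wild type. After AvrRpm1 it had 2.52 and 9.09 CPM in camta3-D, against 50.8 and 22.5 CPM in wild type, and after AvrRps4 12.1 and 20.8 CPM in camta3-D, against 38.5 and 54.3 CPM in wild type. Wild type was thus similar in the 3 treatments, with overlapping libraries, and camta3-D lay below it each time without overlap. The estimate was -5.34 ± 0.76 (SE) after flg22, 40.4-fold lower (edgeR adjusted p = 0.00588), and the gene passed in all 4 fits that left out 1 library each (-6.41 to -4.78). It was -2.67 ± 0.59 after AvrRpm1 (edgeR adjusted p = 0.0347), a call lost without wild-type replicate 1 or camta3-D replicate 1 (-3.86 to -1.97 over the 4 fits, adjusted p 0.0245 to 0.258) and when only the AvrRpm1 libraries were fitted. After AvrRps4 it was -1.50 ± 0.55 and did not pass (edgeR adjusted p = 0.14).

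CML46 had 11.2 and 8.75 CPM in camta3-D after flg22, against 144.2 and 206.3 CPM in wild type. After AvrRpm1 the values were 2.34 and 3.75 CPM in camta3-D, against 26.7 and 8.21 CPM in wild type. After AvrRps4 they were 37.2 and 80.9 CPM in camta3-D, against 55.4 and 114.7 CPM in wild type. The genotypes did not overlap after flg22 or AvrRpm1 and overlapped after AvrRps4. CML46 was 17.6-fold lower in camta3-D after flg22 (log2 fold change -4.14 ± 0.62, edgeR adjusted p = 0.00671), a call that leaving out camta3-D replicate 2 moved just past the threshold (adjusted p 0.0138 to 0.0579 over the 4 fits, -4.40 to -3.88). After AvrRpm1 the estimate was -2.52 ± 0.63 and just missed the threshold with edgeR (adjusted p = 0.0543), while it passed with DESeq2 (adjusted p = 0.00391; 0.0236 to 0.138 under the other alternatives that kept all libraries of the comparison). Leaving out 1 library gave -3.14 without wild-type replicate 2, which passed (adjusted p = 0.0161), to -1.43 without wild-type replicate 1 (adjusted p = 0.402). After AvrRps4 it was -0.53 ± 0.53 (edgeR adjusted p = 0.588). Exons of 2 genes on the opposite strand, AT5G05995 and AT5G39680, overlap the 889 exon bases of CML46 in this annotation. Their overlaps sum to 678 bases, where a base under both genes counts for each. AT5G39680 itself had 20 to 79 counts per library, AT5G05995 is not in the count table, and without a stated strand setting reads of these genes and of CML46 cannot be told apart.

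CML41 is known as a plasmodesmal protein that takes part in callose deposition after flagellin is sensed. It lies at chr3:18873911-18874836 on the plus strand and has no intron. It was barely detected after flg22, with 1 and 3 counts in camta3-D, against 7 and 14 counts in wild type. After AvrRpm1 it had 1.31 and 1.27 CPM in camta3-D, against 10.5 and 5.20 CPM in wild type, and after AvrRps4 9.32 and 12.8 CPM in camta3-D, against 26.3 and 52.9 CPM in wild type. No library of camta3-D reached its wild-type counterparts in any treatment. CML41 was 6.08-fold lower in camta3-D after AvrRpm1 (log2 fold change -2.60 ± 0.46, edgeR adjusted p = 0.0146) and 3.58-fold lower after AvrRps4 (-1.84 ± 0.38, edgeR adjusted p = 0.0292). Both calls are near the threshold. The AvrRpm1 call was kept only without wild-type replicate 2 (adjusted p 0.00722 to 0.105 over the 4 fits) and the AvrRps4 call only without wild-type replicate 1 (0.0449 to 0.18), and both were lost when only the libraries compared were fitted. The size of the difference ranged from -3.03 to -2.01 after AvrRpm1 and from -2.26 to -1.25 after AvrRps4 when 1 library was left out.

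CML43, a gene known to speed the hypersensitive response when overexpressed, is encoded at chr5:17916993-17918001 on the plus strand. It gave only 50 counts in all 12 libraries together. After AvrRpm1 there were 1 and 2 counts in camta3-D, against 21 and 10 counts in wild type, and after AvrRps4 0 and 0 counts in camta3-D, against 2 and 9 counts in wild type. After flg22 there were 0 and 0 counts in camta3-D, against 2 and 3 counts in wild type. Every camta3-D library was thus at or below every wild-type library of its treatment. Summed over the AvrRps4 libraries, wild type was at least 2.31-fold higher by the exact 95% interval, which covers counting error only. With an upper limit of 3 counts set for the pair of camta3-D libraries, and no error on the wild-type counts, wild type was at least 3.37-fold higher. This pools the wild-type libraries of 2 and 9 counts and so rests mostly on 1 library. With the spread between libraries included, CML43 did not pass in any treatment (edgeR adjusted p 0.215 after flg22, 0.101 after AvrRpm1 and 0.121 after AvrRps4). It cleared the filter on low counts through the AvrRpm1 wild-type libraries alone, so for AvrRpm1 the counts are given with no ratio.

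CML10 is known to bind phosphomannomutase, an enzyme of ascorbate synthesis, and was lower in camta3-D after all 3 treatments. Of all genes tested, 0.386% were called lower in all 3. After flg22 CML10 had 70.1 and 58.1 CPM in camta3-D, against 171.8 and 254.3 CPM in wild type. After AvrRpm1 it had 60.3 and 59.0 CPM in camta3-D, against 419.1 and 384.5 CPM in wild type. After AvrRps4 it had 117.3 and 180.0 CPM in camta3-D, against 251.8 and 380.2 CPM in wild type. The genotypes did not overlap in any treatment. In wild type the order was AvrRpm1, AvrRps4 and flg22, in which the AvrRps4 and flg22 libraries overlapped, and in camta3-D AvrRps4 was the highest, with flg22 and AvrRpm1 overlapping. The difference was firmest after AvrRpm1, 6.73-fold lower in camta3-D (log2 fold change -2.75 ± 0.27, edgeR adjusted p = 0.00114), where it passed in all 4 fits without 1 library (-2.81 to -2.69). After flg22 it was 3.32-fold lower (-1.73 ± 0.26, edgeR adjusted p = 0.00693). That call was lost without wild-type replicate 2 or camta3-D replicate 2 (adjusted p 0.0103 to 0.0574 over the 4 fits, -2.02 to -1.45). After AvrRps4 it was 2.13-fold lower (-1.09 ± 0.26, edgeR adjusted p = 0.0446), a call that each of the 4 fits without 1 library lost (0.079 to 0.237, -1.44 to -0.76), as did the fit of the AvrRps4 libraries alone.

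CML12 and CML24 were first described as TCH3 and TCH2, genes induced by touch, and CML24 also acts in flowering time and nitric oxide signalling. CML24 was the one member called higher in camta3-D. It had 21.7 and 34.3 CPM in camta3-D after AvrRpm1, against 9.39 and 7.11 CPM in wild type. After AvrRps4 it had 22.4 and 30.7 CPM in camta3-D, against 11.3 and 11.7 CPM in wild type, and after flg22 53.1 and 67.6 CPM in camta3-D, against 43.3 and 50.1 CPM in wild type. The camta3-D libraries lay above the wild-type libraries in all 3 treatments. CML24 was 3.39-fold higher after AvrRpm1 (log2 fold change 1.76 ± 0.25, edgeR adjusted p = 0.00577) and passed in all 4 fits without 1 library (1.40 to 2.05), though not when only the AvrRpm1 libraries were fitted (adjusted p = 0.0763, the highest of all alternatives; lowest 1.82e-08). It was 2.31-fold higher after AvrRps4 (1.21 ± 0.24, edgeR adjusted p = 0.0266), a call that was lost in each of the 4 fits without 1 library (0.0675 to 0.164, 0.96 to 1.42). After flg22 the estimate was 0.37 ± 0.23 and did not pass (edgeR adjusted p = 0.326). CML24 lies at chr5:14997514-14999619 on the minus strand, and 419 of its 2008 exon bases overlap AT5G37760 on the other strand, which had 0 to 2 counts per library.

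CML12 was the most abundant member after flg22 per length as well as in CPM. It had 2703 and 2737 CPM in camta3-D after flg22, against 3887 and 3413 CPM in wild type. After AvrRpm1 it had 89.9 and 226.4 CPM in camta3-D, against 310.6 and 227.9 CPM in wild type, and after AvrRps4 652.5 and 891.8 CPM in camta3-D, against 544.5 and 913.1 CPM in wild type. The genotypes overlapped after AvrRps4 only. None of the differences passed, with log2 fold changes of -0.42 ± 0.38 for flg22, -0.77 ± 0.38 for AvrRpm1 and 0.08 ± 0.38 for AvrRps4 (edgeR adjusted p 0.512, 0.304 and 0.918). Without camta3-D replicate 2, the library with the high share of not-unique reads, the AvrRpm1 estimate was -1.58 and passed (adjusted p = 0.0444), so this call rests on which libraries are kept.

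CML10 and CML12 are direct neighbours on the plus strand of chromosome 2, CML10 at chr2:17135347-17136999 and CML12 at chr2:17137037-17139700, and CAM2, a calmodulin gene, follows at chr2:17140183-17141431. CML10 did not share the pattern of CML12 and CAM2, which were both highest after flg22 in each genotype. Over the 12 libraries the Pearson correlation of log2 CPM between CML10 and CML12 was -0.00809. CAM2 had means of 254.3, 30.5 and 21.6 CPM in camta3-D after flg22, AvrRpm1 and AvrRps4, against 304.7, 26.1 and 21.6 CPM in wild type, and passed in no genotype comparison (edgeR adjusted p 0.328 to 0.999). Of the 50-base stretches of the exons, 3.66% of those of CML12 and 0.855% of those of CML10 occur more than once in the genome, and for the other 8 members none do. Exons on the opposite strand overlap 16 of the exon bases of CML10, and their overlaps with CML12, summed over loci, come to 515 bases. These loci are not in the count table.

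CML37 is known as a positive actor in jasmonate-dependent defence against herbivores, CML42 as a negative one that also affects trichome branching, and CML38 as a protein of stress granules in low oxygen. CML37 had 19.3 and 8.39 CPM in camta3-D after flg22, against 27.3 and 103.0 CPM in wild type. The camta3-D libraries lay below those of wild type, but the wild-type libraries differed 3.77-fold from each other. CML37 was lower in camta3-D by the test (log2 fold change -2.24 ± 0.59, edgeR adjusted p = 0.0403). The call was lost without wild-type replicate 2 (-1.01), camta3-D replicate 1 or camta3-D replicate 2 (adjusted p 0.0138 to 0.307 over the 4 fits), and when only the flg22 libraries were fitted. After AvrRpm1 CML37 was close to the detection limit, with 0.284 and 0.988 CPM in camta3-D, against 0.251 and 0.707 CPM in wild type, and after AvrRps4 it had 8.55 and 10.03 CPM in camta3-D, against 5.96 and 6.53 CPM in wild type. Neither difference passed (0.37 ± 1.15 and 0.57 ± 0.61, edgeR adjusted p 0.904 and 0.61).

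CML38 followed CML37 across the libraries (Pearson r = 0.96 over 12 libraries, the highest of the 45 pairs of members) but did not differ detectably between genotypes. It had 53.9 and 33.2 CPM in camta3-D after flg22, against 40.2 and 80.5 CPM in wild type. After AvrRpm1 the values were 0.923 and 5.10 CPM in camta3-D, against 1.69 and 3.11 CPM in wild type, and after AvrRps4 25.5 and 33.9 CPM in camta3-D, against 9.28 and 27.7 CPM in wild type. The genotypes overlapped in all 3 treatments, with log2 fold changes of -0.47 ± 0.61, 0.30 ± 0.81 and 0.68 ± 0.62 (edgeR adjusted p 0.66, 0.886 and 0.544). The neighbouring gene CML39, 883 bases away, was at or below 0.276 CPM in every library and was not tested.

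CML42 had 222.1 and 277.9 CPM in camta3-D after flg22, against 301.1 and 285.3 CPM in wild type. In the 8 Pst libraries it stood between 5.50 and 13.1 CPM. The genotype estimates were -0.23 ± 0.28 for flg22, 0.26 ± 0.31 for AvrRpm1 and -0.75 ± 0.32 for AvrRps4. None passed (edgeR adjusted p 0.639, 0.698 and 0.189).

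**Figure D2:**
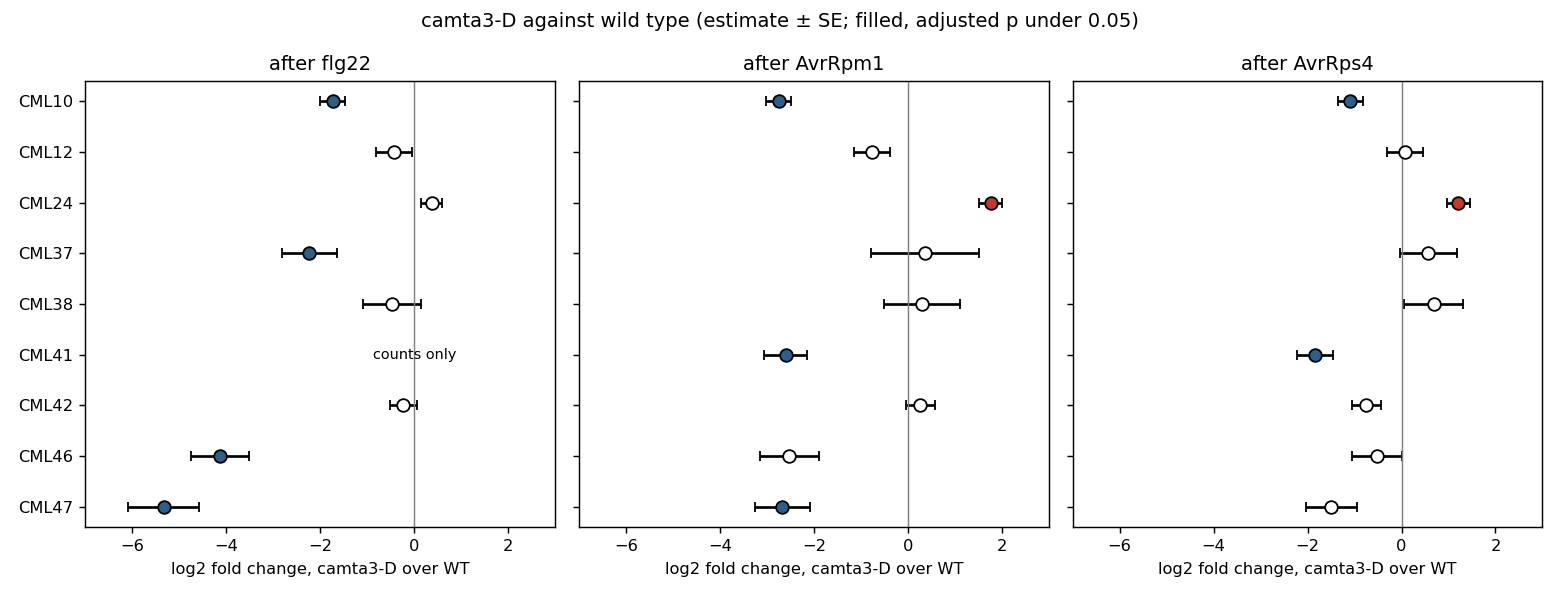
Log2 fold change of camta3-D over wild type for 9 calmodulin-like genes after each treatment, as edgeR estimate ± SE, filled blue where lower and red where higher at an adjusted p under 0.05 (2 libraries per group). CML43, and CML41 after flg22, had 3 counts or fewer per camta3-D library and are given as counts in the text. CML10 lies left of 0 in all 3 panels, at -1.73, -2.75 and -1.09, and CML24 right of 0, at 0.37, 1.76 and 1.21.

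Whether the genotype effect itself differed between treatments was tested by the differences of the log2 fold changes. None of the 10 members passed with edgeR in any of the 3 such tests, in which 0.563%, 0.047% and 0.0209% of all genes passed in either direction. Setting AvrRps4 against flg22, the estimates closest to passing were those of CML46 (3.61 ± 0.79, edgeR adjusted p = 0.0978) and CML47 (3.84 ± 0.95, edgeR adjusted p = 0.118), that is, smaller deficits in camta3-D after AvrRps4. At an unadjusted p under 0.05 there were 4 members (CML24, CML37, CML46 and CML47), all higher, and DESeq2 called CML46 and CML47. For AvrRpm1 against flg22, 1 member was lower (CML10, -1.02 ± 0.36) and 2 were higher (CML24, 1.39 ± 0.34, and CML47, 2.66 ± 0.98) at an unadjusted p under 0.05, and DESeq2 called CML24. For AvrRpm1 against AvrRps4, CML10 (-1.66 ± 0.36) and CML46 (-1.996 ± 0.82) were lower and CML42 (1.01 ± 0.44) was higher at that level, and DESeq2 called CML10. DESeq2 called many more genes than edgeR in these 3 tests. Of 19167 genes it called 346 higher and 254 lower for AvrRps4 against flg22, where edgeR called 7 and 2. For AvrRpm1 against flg22 it called 233 and 429 (edgeR 34 and 74), and for AvrRpm1 against AvrRps4 233 and 361 (edgeR 1 and 3). The share of all genes at an unadjusted p under 0.05 was not counted. These 3 tests share libraries. A call for a gene after one treatment and not after another is therefore not shown to be a difference between treatments by the edgeR test.

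The 2 Pst strains were compared within each genotype at the same time and dose. Members were lower after AvrRpm1 than after AvrRps4, or did not pass, in both genotypes. In camta3-D, 6 members were lower and 0 higher, against 12.4% and 10.5% of all genes, and in wild type 2 were lower and 0 higher, against 2.17% and 1.58%. At an unadjusted p under 0.05 the counts were 7 lower and 1 higher in camta3-D and 5 lower and 0 higher in wild type. The share of all genes at that unadjusted level was not counted, so it cannot be set beside these counts. DESeq2 called 1 higher in camta3-D (CML42) and 0 in wild type, where it called 2129 and 686 of all genes higher. In camta3-D the members lower were CML46 (log2 fold change -4.28 ± 0.65, 19.4-fold, edgeR adjusted p = 0.00256), CML37 (-3.89 ± 0.81), CML38 (-3.33 ± 0.72), CML41 (-3.09 ± 0.46), CML12 (-2.29 ± 0.40) and CML10 (-1.32 ± 0.26). CML12, CML41 and CML46 passed in all 4 fits without 1 library each. The CML10 call was lost without AvrRps4 replicate 2, the CML38 call also without AvrRps4 replicate 2, and the CML37 call without AvrRpm1 replicate 1. Without AvrRpm1 replicate 2, the library with the high share of not-unique reads, the estimates were -5.01 for CML37, -5.0 for CML38 and -3.10 for CML12. Without AvrRpm1 replicate 1, that of CML37 was -3.23 and that of CML38 was -2.54, and without AvrRps4 replicate 2 that of CML46 was -3.61. In wild type CML41 (-2.33 ± 0.39, edgeR adjusted p = 0.0152) and CML37 (-3.69 ± 0.85, edgeR adjusted p = 0.0458) were lower. The CML41 call was lost without AvrRpm1 replicate 2 or AvrRps4 replicate 2 (-2.93 to -1.74 over the 4 fits), and the CML37 call in each of the 4 fits without 1 library (-4.61 to -3.13). CML46 (-2.28 ± 0.56), CML38 (-2.94 ± 0.73) and CML12 (-1.44 ± 0.39) just missed the threshold there (edgeR adjusted p 0.0559, 0.0578 and 0.0737).

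CML10 had estimates of opposite sign in the genotypes, with 59.7 ± 0.89 CPM after AvrRpm1 and 148.7 ± 44.3 CPM after AvrRps4 in camta3-D (SD, n = 2 each), and 401.8 ± 24.5 and 316 ± 90.8 CPM in wild type. The wild-type difference, 0.35 ± 0.25, did not pass (edgeR adjusted p = 0.504). The difference between the genotypes is the AvrRpm1 against AvrRps4 test above, which did not pass (edgeR adjusted p = 0.112).

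**Figure D3:**
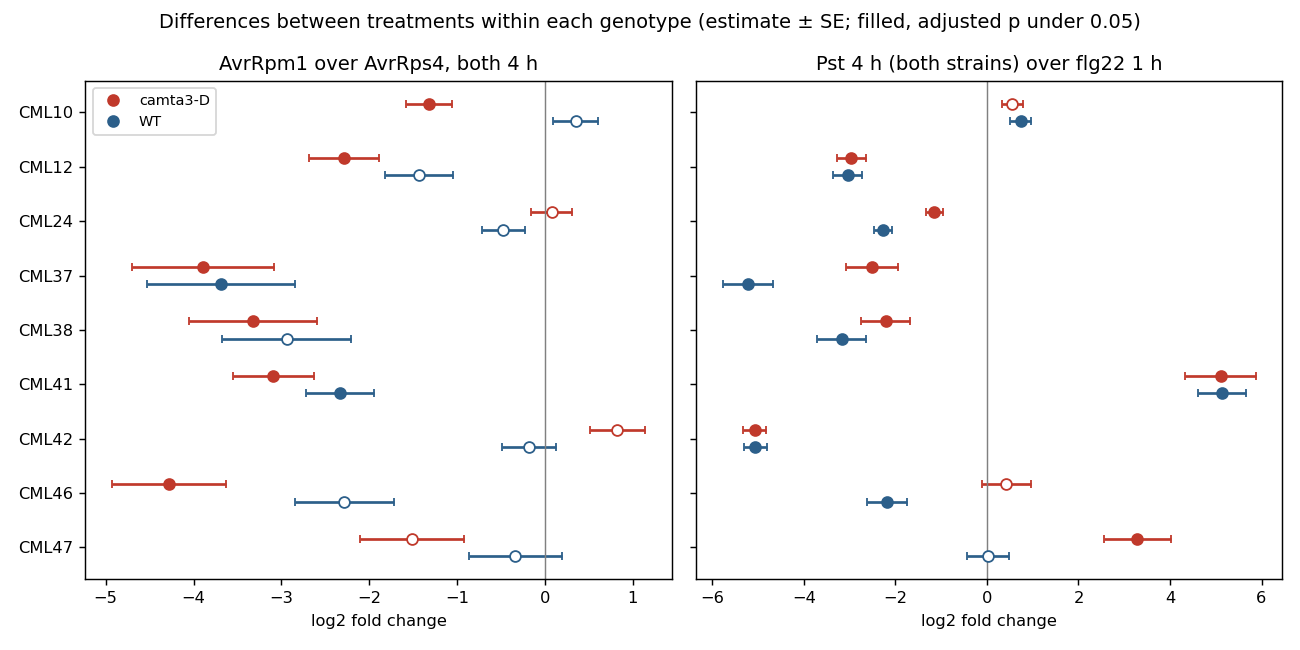
Log2 fold changes between treatments for 9 calmodulin-like genes, as edgeR estimate ± SE, in camta3-D (red) and wild type (blue), filled where the adjusted p was under 0.05. Left, AvrRpm1 over AvrRps4; right, the mean of both Pst groups at 4 h over flg22 at 1 h. The camta3-D estimates for CML46, CML37 and CML38 on the left lie at -4.28, -3.89 and -3.33, and CML41 and CML42 on the right lie at 5.10 and -5.08 in camta3-D and at 5.14 and -5.06 in wild type.

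The flg22 and Pst libraries differ in both elicitor and time, which cannot be told apart, so their comparison only describes where each gene was abundant. In camta3-D 5 members were lower after Pst at 4 h than after flg22 at 1 h and 2 higher, against 32.5% and 33.9% of all genes. In wild type 6 were lower and 2 higher, against 34.3% and 36.8%. CML42 was 33.8-fold lower after Pst in camta3-D and 33.5-fold lower in wild type (log2 fold change -5.08 ± 0.26 and -5.06 ± 0.25, edgeR adjusted p = 1.47e-07 and 1.15e-07). CML12 had log2 fold changes of -2.96 ± 0.32 in camta3-D and -3.04 ± 0.32 in wild type. CML24, CML37 and CML38 were lower in both genotypes as well, with log2 fold changes of -1.15, -2.52 and -2.21 in camta3-D and of -2.26, -5.22 and -3.18 in wild type. The camta3-D libraries of CML37 and CML38 overlapped between Pst and flg22, and the CML37 call there was lost without flg22 replicate 1 (-1.80). The CML38 estimate there was -3.05 without AvrRpm1 replicate 2, and that of CML37 in wild type was -5.92 without flg22 replicate 1 and -4.00 without flg22 replicate 2. CML41 ran the other way, higher after Pst in both genotypes (5.10 ± 0.77 in camta3-D, over only 1 and 3 counts after flg22 and 6.02 without flg22 replicate 2, and 5.14 ± 0.52 in wild type).

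CML46 and CML47 each passed in 1 genotype only in this comparison. CML47 was higher after Pst in camta3-D (3.28 ± 0.73, edgeR adjusted p = 0.00267; 2.69 to 4.33 with 1 library left out, lowest without flg22 replicate 1 or AvrRpm1 replicate 2 and highest without flg22 replicate 2), and its wild-type estimate was 0.03 ± 0.46 (edgeR adjusted p = 0.956). CML46 had an estimate of 0.43 ± 0.53 in camta3-D, which did not pass (edgeR adjusted p = 0.497), and was lower after Pst in wild type (-2.19 ± 0.44, edgeR adjusted p = 0.00134). Whether the genotypes differed in this contrast, which averages both Pst groups, was not tested. CML10 was higher after Pst in wild type (0.74 ± 0.23, edgeR adjusted p = 0.0144), a call lost without flg22 replicate 1, and its estimate in camta3-D was 0.56 ± 0.23 (edgeR adjusted p = 0.0538).

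Levels can be compared between members as scaled CPM per kilobase of annotated exon. In camta3-D after flg22 the highest group means per kilobase were those of CML12 (1070), CML42 (255), CML10 (44.7) and CML38 (43.8), against 1430, 299, 149 and 60.8 in wild type. CML46 and CML47 stood at 11.2 and 0.916 CPM per kilobase in camta3-D, against 197 and 37.4 in wild type. After AvrRpm1 CML12 and CML10 led in both genotypes, at 62.1 and 41.6 in camta3-D, against 106 and 280 in wild type. In camta3-D the libraries of CML12 (35.3 and 88.8) lay on either side of those of CML10 (42.1 and 41.2), and in wild type CML10 stood above CML12 in both. CML43 never exceeded 0.746 CPM per kilobase in any library.

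The other genes of calcium sensing came from lists written from general knowledge, in 5 groups: 40 further CML genes (24 tested), 7 calmodulins (7 tested), 10 CBL genes, whose products activate CIPK kinases (7 tested), 10 ACA calcium pumps (8 tested) and 3 small EF-hand proteins (3 tested). After flg22, 7 further CML genes were lower and 1 higher. The lower ones with the smallest p were CML35 (-1.83 ± 0.22, edgeR adjusted p = 0.00345), CML21 (-2.37 ± 0.34) and CML45 (-2.34 ± 0.55), and the higher one was CML5 (1.23 ± 0.27). Of the calmodulins, 4 were lower by small amounts, among them CAM5 (-0.63 ± 0.09), CAM1 (-0.44 ± 0.09), the nearest gene on the far side of CML24, and CAM4 (-0.38 ± 0.09). The small EF-hand genes were all lower after flg22: KIC (-2.09 ± 0.27, edgeR adjusted p = 0.00411), PBP1, whose product binds the kinase PINOID (-2.93 ± 0.40), and CMI1 (-2.59 ± 0.46). Of the pumps ACA2 alone was lower (-0.66 ± 0.17), and of the CBL genes none passed (lowest edgeR adjusted p 0.132; 1 at an unadjusted p under 0.05).

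After AvrRpm1 the only call in these 5 groups was CML5, higher in camta3-D (1.54 ± 0.27, edgeR adjusted p = 0.0139). After AvrRps4 there were 3 calls: CML23, the closest relative of CML24, was higher (1.39 ± 0.29, edgeR adjusted p = 0.0297), and CAM1 (-0.59 ± 0.09) and CAM6 (-0.40 ± 0.09) were lower. The medians of the 24 further CML genes were -0.375 after flg22, -0.101 after AvrRpm1 and -0.115 after AvrRps4. They lay nearer to the medians of all genes tested than those of the 10 members did. The 10 members were chosen with earlier results of these data known, so this contrast is a description and not a test.

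**Figure D4:**
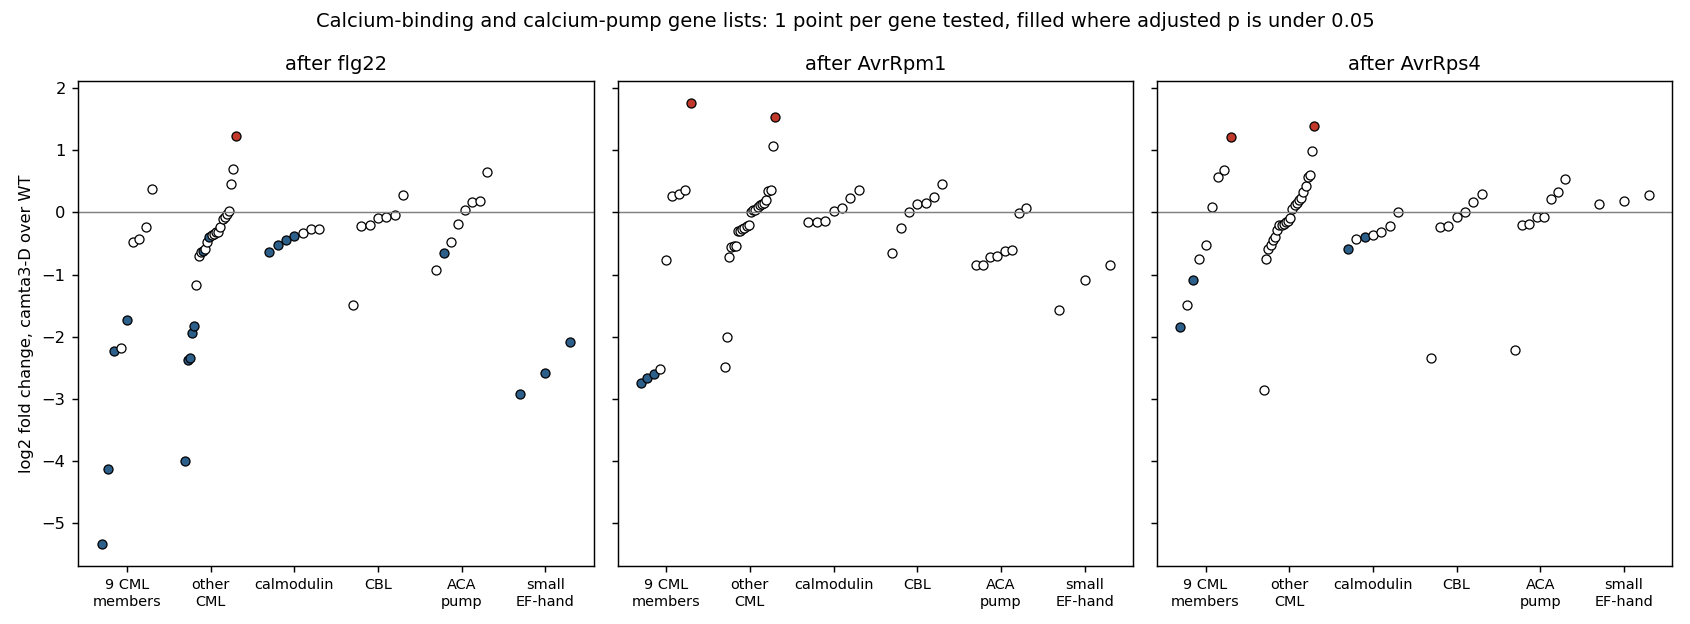
Log2 fold change of camta3-D over wild type (edgeR estimate) after each treatment for every gene tested in 6 calcium-related lists, 1 point per gene, blue where lower and red where higher at an adjusted p under 0.05. CML43 is left out of the first list. After flg22 all 3 small EF-hand genes lie between -2.93 and -2.09, and the 7 calmodulins between -0.63 and -0.26.

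Markers of guard cells moved with genotype in part. Of 5 such markers, MYB60 (-0.70) and FAMA (-0.94) were lower in camta3-D after flg22 and MYB60 (-0.63) after AvrRps4, and 0 of 5 passed after AvrRpm1 (edgeR; 2 at an unadjusted p under 0.05). Their summed level was 24.3 to 43.7 CPM in camta3-D and 38.7 to 54.3 CPM in wild type. All 5 mesophyll markers had higher estimates in camta3-D after flg22, AvrRpm1 and AvrRps4 (medians 0.231, 0.286 and 0.239; lowest 0.132, 0.0953 and 0.199). Of these GAPA alone passed, after AvrRps4 (0.51), while 2, 3 and 2 stood at an unadjusted p under 0.05 (edgeR). Of the 5 epidermis and 5 phloem markers none passed in the 3 genotype comparisons (edgeR; 0 to 2 of either list at an unadjusted p under 0.05). The part of cell composition in the results above was not tested.

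For each member the genes most like it over the 12 libraries were sought by Pearson correlation of log2 CPM among 13679 genes, as a description. CML42 resembled AT1G68340 and PP2CG1 (r = 0.997 each), CML12 AT1G31130 (0.992), CML46 AT4G02550 (0.991) and CML37 AT2G32030 (0.982). CML38 resembled SZF1 and AT1G07135 (0.979 each), and FBS1, a stress-induced F-box gene, was among the nearest 3 for both CML37 (0.973) and CML38 (0.976). CML10 resembled AT5G59670 (0.977), CML41 AAPT2 (0.978), CML24 AT1G65240 (0.959) and CML43 CYP71B23 (0.967), followed by RLP38 (0.957) and WRKY54 (0.951). The CML43 correlations rest on very few counts, with none in the camta3-D libraries after flg22 or AvrRps4. CML47 had the loosest likeness (SAM1, 0.934). The points of each correlation share treatment and time, which separate the libraries for most genes.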

How the data were processed

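The values used were the raw read counts per gene that the authors deposited for 12 libraries of polyadenylated leaf RNA (TruSeq RNA v2 kit, per the labels). The submitters' processing notes name FastQC (0.11.2), TopHat2 (2.0.10), HTSeq and the TAIR10 genome. The counting mode and strand setting are not given in the sources used here. The 5 summary lines that name no gene (5.66% to 10.8% of reads) stayed out of library sizes and tests, and 0 columns belonged to other series.

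In R (4.3.3), a mean per group was fitted to the counts by edgeR (4.0.16) and tested by quasi-likelihood, over all 12 libraries (6 residual degrees of freedom) and TMM scaling (factors 0.797 to 1.17). The filterByExpr minimum count was 10, which left 19167 genes. Benjamini-Hochberg adjusted p under 0.05 was called. CPM values are TMM-scaled, correlations used log2 CPM with a prior count of 2, and ± on fold changes is the SE. Genotype differences with 3 counts or fewer in each camta3-D library are given as counts. Intervals on counts cover counting error only.

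The 10 members were named in every comparison. From each other list up to 3 called genes per direction with the smallest adjusted p were named, with neighbours of members, and the 3 genes most like each member, of which the first is always given. Members and lists were chosen with earlier results of these data known. Alternatives were median-ratio size factors, DESeq2 (1.42.0), no filter, a replicate block, a fit of only the libraries compared, stricter thresholds and each library left out in turn. The scripts were tested on simulated data. Gene positions, exon lengths and promoters came from the RefSeq TAIR10.1 annotation.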

Additional observations from a re-analysis of the deposited data

How the results depend on the processing

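Median-ratio size factors changed no count of members called. Fitting only the libraries compared left 3 members lower after flg22, where 918 of all genes were lower against 1072 in the main fit. It left 1 lower and 0 higher after AvrRpm1 (86 and 22 of all genes, against 653 and 214). After AvrRps4 it left 0 lower (334 genes, against 467), and for AvrRpm1 against AvrRps4 in wild type 1 lower (234, against 416). Stricter thresholds (0.01 on the adjusted p and 1 on the absolute log2 scale) left 3 members lower after flg22 (176 of all genes). They left 1 lower after AvrRpm1 (154 genes), and 0 lower and 0 higher after AvrRps4 (36 and 35 genes). Between the strains they left 0 lower in wild type (64 genes) and 5 lower in camta3-D (554, against 2377 in the main fit). For Pst against flg22 in wild type 1 was higher (3783 genes, against 7063). DESeq2 and the fit without a filter each called 5 members lower between the strains in wild type (782 and 560 genes, against 416). Each called 4 lower after AvrRpm1 (1114 and 715 genes, against 653). DESeq2 called 1 higher between the strains in camta3-D (2129 genes, against 2006). For Pst against flg22 in camta3-D, 3 were higher without a filter (6436 genes) and with only the libraries compared (6160), against 2 (6498). For differences of the genotype effect, DESeq2 called 1 member higher for AvrRpm1 minus flg22 (233 genes, against 34 with edgeR). It called 2 higher for AvrRps4 minus flg22 (346 genes, against 7), where 1 was higher without a filter (68 genes). For AvrRpm1 minus AvrRps4 it called 1 lower (361 genes, against 3).

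Leaving out 1 library at a time changed the number of members called in most comparisons. These fits also called fewer of all genes in most cases, so the changes need not be particular to the members. Some log2 fold changes that did not pass turned sign among these fits: CML38 after flg22 (-0.92 to 0.0895), CML37 (-0.75 to 1.29), CML38 (-1.37 to 1.09) and CML42 (-0.30 to 0.69) after AvrRpm1, CML12 (-0.24 to 0.50) and CML46 (-1.20 to 0.0894) after AvrRps4, CML42 (-0.62 to 0.14) and CML47 (-1.04 to 0.13) between the strains in wild type, and CML24 between them in camta3-D (-0.29 to 0.37). CML47 for Pst against flg22 in wild type was -0.0274 with median-ratio size factors, -0.0277 with DESeq2 and -0.32 to 0.34 with 1 library left out. Apart from fits with fewer libraries or stricter thresholds, the cause was not tested.

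Replicate numbers are shared between groups, but libraries with the same number did not deviate together in every pair of groups (r -0.279 to 0.195 over 15 pairs, 2 over 0.1). The highest r was that of the AvrRps4 groups, in which replicate 2 was the higher for most members. With the number as a replicate block, 3 members were lower after flg22 instead of 4 (CML37 lost, adjusted p = 0.0699), and no other count changed. Of all genes, 894 were then lower after flg22, against 1072. Between the strains in wild type the block lost CML37 (0.0512) and gained CML38 (0.0413). With the numbers crossed, a choice made after seeing the data, 4 members were lower after flg22 (949 of all genes). Between the strains in wild type, 4 were then lower (516 of all genes).

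With 2 libraries per group, calls near the threshold rest on single libraries, and counts of 3 or fewer limit CML41 after flg22 and CML43 throughout.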
